A study of Mus musculus with 4 samples.

Results

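The 500 widest open regions of large peritoneal macrophages (LPMs), the resident macrophages of the peritoneal cavity, were taken from the ATAC-seq peak lists of 4 libraries. Merging peaks with at least 1 bp in common gave 70744 regions. Of these, 2 or more libraries called 51742, and the 500 with the greatest end minus start were selected on that width alone. They were 1244 to 3359 bp wide, with a median of 1356 bp, against a median of 460 bp in the other 51242 regions. Without LysMCre+ Rxrab fl/fl replicate 2 the same rule gave 307 of the 500, and without replicate 1 of that genotype it gave 353. These 2 libraries therefore decided much of the choice. In ATAC-seq the Tn5 transposase cuts DNA that is not wrapped in nucleosomes, and a peak is a stretch with more cuts than the background around it. Rxrab fl/fl mice carry floxed Rxra and Rxrb alleles without Cre, and LysMCre+ Rxrab fl/fl mice carry the same alleles with Cre driven by the lysozyme M gene, which acts in myeloid cells at large and not in LPMs alone. All mice were C57BL/6 and 9 weeks old, and each genotype had 2 libraries of one library batch, numbered 1 and 3 for Rxrab fl/fl but 1 and 2 for LysMCre+ Rxrab fl/fl, from sorted LPMs. No label says that the libraries came from separate mice, so p-values measure the spread between libraries alone. The study states that libraries not clustering with their group were left out, so the spread within a genotype may be understated, and peak lists cannot show whether the floxed exons were lost.

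The libraries differed in how much was called before any region was chosen. Lists held 38048 and 16097 peaks in Rxrab fl/fl against 65421 and 55581 in LysMCre+ Rxrab fl/fl, while the depth estimated from the background, 18.4 and 9.92 M tags against 12.4 and 10.1 M, did not follow that order. LPM markers had a peak within 1 kb of their transcription start site (TSS) for 6 of 8 genes in each Rxrab fl/fl library and 7 of 8 in each LysMCre+ Rxrab fl/fl library, among them Gata6, Adgre1, Icam2 and Timd4. Markers of small peritoneal macrophages or monocytes had one for 3 and 1 of 8 genes in Rxrab fl/fl against 7 and 6 of 8 in LysMCre+ Rxrab fl/fl, with Ccr2 lacking a peak in every library. Neutrophil markers reached 1 and 0 of 6 in Rxrab fl/fl against 3 and 1 of 6 in LysMCre+ Rxrab fl/fl, B cell and T cell markers at most 1 of 6 each, and mast cell and mesothelial markers 0 of 5. These counts moved with genotype and with the number of peaks, and their part in the differences between genotypes below was not tested.

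Open regions are usually a few nucleosomes long. Promoters of widely used genes often lie in CpG islands, stretches rich in GC and in CpG dinucleotides that hold few stable nucleosomes. Wider open stretches arise where such promoters fire in both directions, where several regulatory elements adjoin, or across strongly transcribed DNA. Promoter regions and regions without a promoter are shown first by their sequence, since the contrast between CpG-rich and CpG-poor wide regions runs through the results. Each stretch is 300 bp of the RefSeq GRCm38.p6 assembly, the same coordinates as mm10, plus strand, centred on the summit with the highest fold enrichment, the signal over the local background, relative to the library's median, and capitals mark CpG.

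Among promoters, the windows of Bhlhe40 (chr6:108659407-108659706) and Ctcf (chr8:105636179-105636478) held 30 and 42 CpG, and those of Maf (chr8:115707739-115708038) and Garnl3 (chr2:33130813-33131112) held 14 and 11. The midpoints of these windows stood at -1073, -210, -994 and -343 bp from the nearest TSS, where negative is upstream. Bhlhe40 and Maf encode transcription factors of macrophages, Ctcf the insulator protein, and Garnl3 was in the list of LPM hallmark genes.
Bhlhe40: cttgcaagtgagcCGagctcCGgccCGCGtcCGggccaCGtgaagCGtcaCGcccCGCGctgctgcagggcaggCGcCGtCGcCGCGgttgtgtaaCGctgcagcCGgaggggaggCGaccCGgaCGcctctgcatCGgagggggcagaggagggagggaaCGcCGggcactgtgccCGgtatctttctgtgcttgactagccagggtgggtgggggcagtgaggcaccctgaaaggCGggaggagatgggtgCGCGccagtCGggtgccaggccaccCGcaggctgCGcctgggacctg
Ctcf: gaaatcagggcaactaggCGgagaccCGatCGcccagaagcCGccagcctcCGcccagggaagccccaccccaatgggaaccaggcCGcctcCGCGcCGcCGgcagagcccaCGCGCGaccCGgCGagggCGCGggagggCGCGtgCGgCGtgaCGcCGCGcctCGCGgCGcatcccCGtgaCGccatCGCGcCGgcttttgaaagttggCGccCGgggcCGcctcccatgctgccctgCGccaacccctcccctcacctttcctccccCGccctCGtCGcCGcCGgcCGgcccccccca
Maf: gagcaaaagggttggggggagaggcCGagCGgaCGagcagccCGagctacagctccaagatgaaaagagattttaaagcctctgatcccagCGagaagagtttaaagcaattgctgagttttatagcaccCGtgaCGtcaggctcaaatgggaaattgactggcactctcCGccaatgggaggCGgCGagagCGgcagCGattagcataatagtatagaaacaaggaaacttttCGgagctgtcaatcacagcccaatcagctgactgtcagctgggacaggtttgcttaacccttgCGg
Garnl3: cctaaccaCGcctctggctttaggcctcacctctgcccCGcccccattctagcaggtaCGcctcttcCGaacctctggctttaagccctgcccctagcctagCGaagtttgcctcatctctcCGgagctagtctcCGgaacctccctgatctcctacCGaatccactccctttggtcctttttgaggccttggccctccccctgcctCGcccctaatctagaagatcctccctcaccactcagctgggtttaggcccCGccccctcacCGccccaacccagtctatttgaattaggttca

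By contrast, the windows past the 3′ ends of Malat1 (chr19:5794129-5794428) and Fos (chr12:85478759-85479058) held 2 and 6 CpG, and that in an intron of Tns1 (chr1:73999077-73999376) held 4. None of the 7 windows overlapped a curated exon.
Malat1: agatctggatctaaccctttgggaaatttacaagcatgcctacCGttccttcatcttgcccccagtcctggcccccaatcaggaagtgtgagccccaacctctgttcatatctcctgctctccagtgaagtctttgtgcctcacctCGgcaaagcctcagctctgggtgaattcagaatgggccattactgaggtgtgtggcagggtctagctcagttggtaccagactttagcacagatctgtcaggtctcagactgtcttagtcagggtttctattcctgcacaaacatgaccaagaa
Fos: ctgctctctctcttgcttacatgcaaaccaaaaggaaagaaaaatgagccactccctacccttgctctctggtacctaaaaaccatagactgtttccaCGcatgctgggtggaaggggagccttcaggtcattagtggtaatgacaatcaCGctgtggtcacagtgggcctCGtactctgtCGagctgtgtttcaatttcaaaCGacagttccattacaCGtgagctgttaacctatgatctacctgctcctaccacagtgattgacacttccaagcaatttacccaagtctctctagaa
Tns1: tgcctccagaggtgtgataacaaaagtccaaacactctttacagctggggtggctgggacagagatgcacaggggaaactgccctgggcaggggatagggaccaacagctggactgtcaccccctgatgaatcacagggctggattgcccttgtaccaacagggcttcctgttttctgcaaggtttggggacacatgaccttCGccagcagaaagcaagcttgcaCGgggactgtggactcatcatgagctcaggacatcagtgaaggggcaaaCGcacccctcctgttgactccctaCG

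Most of the widest regions were promoters. Of the 500, 403 held at least 1 TSS of a curated RefSeq transcript (80.6%, Wilson 95% interval 76.9 to 83.8%, counting error only), against 21.2% of the other regions. The share fell with width over the ranking, to 73.6% of the next 500, 66.1% of the following 4000, 49.5% of the following 5000 and 12.9% of the remaining 41742. Since a wider interval has more room for a TSS, the midpoint was also placed on its own. It was at most 1 kb upstream or 200 bp downstream of a TSS in 60.4% of the widest regions, 57.8% of the next 500 and 21.8% of all others. Among the remaining 97 wide regions, 10 had a TSS within 1 kb, 14 lay up to 5 kb past a 3′ end outside any gene, 9 had their midpoint in an exon, 30 in an intron and 34 between genes.

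**Figure D1:**
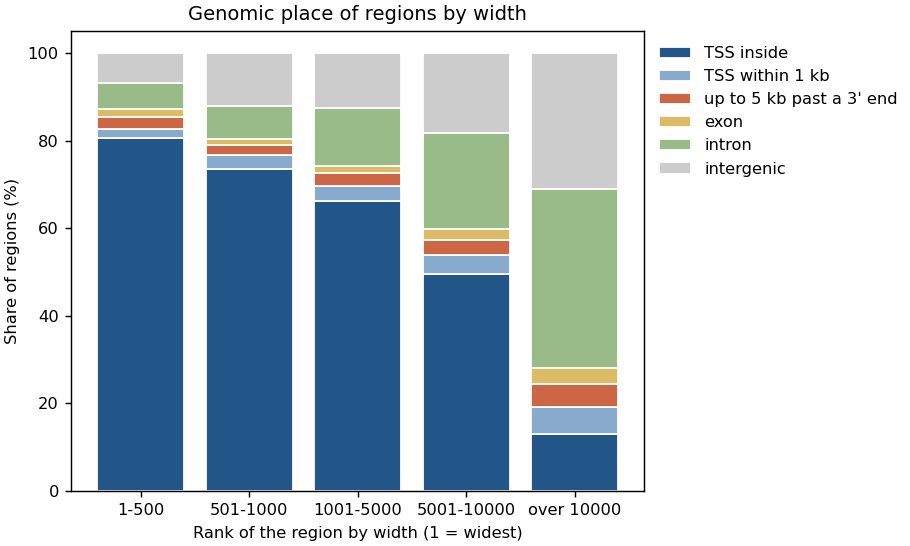
Share of regions (%, vertical axis) in each genomic place, for all 51742 regions called in 2 or more libraries, by rank in width (horizontal axis, 1 is the widest). The dark blue share with a TSS inside falls from 80.6% in the 500 widest to 12.9% in the 41742 narrowest, while introns and intergenic DNA grow from 6.0% and 6.8% to 40.9% and 31.0%.

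The starts inside belonged to 505 genes, of which 460 were protein-coding, 38 long non-coding and 7 miRNA genes, whose annotated start is that of the precursor. They were 4.14% of the 12211 genes with a TSS in any region called in 2 or more libraries. In 360 regions every start was coding, in 35 coding and non-coding starts lay together, and in 8 the starts were non-coding alone. Starts of 2 or more genes lay in 100 regions, and 94 had starts on both strands, as divergent promoters do. That was 23.3% of the wide regions with a TSS, against 14.9% for the next 500 and 11.6% for all other regions with a TSS. Width again adds room for a second start, so these shares are given with no test.

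In the 241 wide regions with a single TSS position, open DNA reached a median of 646 bp upstream and 754 bp downstream of it, against 296 and 329 bp in the other regions. More lay downstream than upstream in 134 of the 241 (55.6%), a share close to the 52.5% of other regions with a single TSS. The strongest summit stood at a median of -74 bp from the TSS (quartiles -236 and 27 bp), and within 200 bp of it in 137 regions. Individual promoters departed widely from this. The region at Maf extended 1468 bp upstream and 144 bp downstream of the TSS, and that of Bhlhe40, a basic helix-loop-helix factor, 1352 and 160 bp. Nfe2l2, which encodes the oxidative stress factor NRF2, showed the reverse with 319 bp upstream and 1259 bp downstream, and Actb, the β-actin gene, with 195 and 1090 bp.

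Base composition followed the presence of a TSS more than width. GC content had a median of 64.3% in the wide regions with a TSS and 62.8% in other regions with one, and the ratio of observed to expected CpG was 0.80 and 0.77. Wide regions without a TSS had 54.1% GC and a CpG ratio of 0.32, against 49.2% and 0.24 in other regions without one. A window of 300 bp at the strongest summit with over 50% GC and a CpG ratio over 0.6 occurred in 82.6% of the wide regions with a TSS and 77.7% of the others with one. Without a TSS it occurred in 25 of 97 wide regions (25.8%) and in 7.0% of the others. In the next 500 by width such windows occurred in 85.6% of regions with a TSS and 22.0% of those without one. Without a TSS the share was 17.0% in the following 4000. The higher share without a TSS was therefore not particular to the 500 widest.

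Short motifs in the same windows, searched on both strands, followed the same division. The GC box GGGCGG was present in 76.2% of the windows of wide regions with a TSS, 70.1% of other regions with one and 36.0% of 31396 RefSeq promoters of the same length. The ETS motif CCGGAAGT was found in 6.5% and 8.2%, the CCAAT box in 34.7% and 37.5%, and the NRF1 motif CGCATGCG in 3.7% and 3.5% of windows with a TSS, wide and other. Matches of macrophage factors were sparser in the wide set as a whole. AGATAA, bound by GATA factors, was in 4.0% of the 500 windows against 10.2% of the others and 11.2% of RefSeq promoters. GAGGAAGT, bound by PU.1, was in 5.2% against 10.9% of other windows and 3.2% of promoters. TGANTCA, bound by AP-1, was in 5.8% against 15.6% and 7.8%, and TTGCNNAA, bound by C/EBP, in 8.2% against 15.5% and 10.9%. With a TSS inside, wide and other windows differed little for these motifs, at 3.5% and 3.7% for AGATAA, 4.0% and 3.8% for GAGGAAGT, and 4.5% and 4.8% for TGANTCA. Without a TSS the wide windows held fewer matches, at 6.2% against 11.99% for AGATAA, 10.3% against 12.8% for GAGGAAGT and 11.3% against 18.5% for TGANTCA, over 97 wide windows. The nuclear receptor half-site AGGTCA, which also occurs by chance in many windows, was present in 13.0% of the wide regions, 17.98% of the others and 16.3% of promoters. With a TSS inside it was in 11.2% of wide and 10.8% of other windows, and without one in 20.6% and 19.9%. Windows with a TSS therefore differed little between wide and other regions for the motifs given. Without a TSS they differed little for AGGTCA but more for AGATAA and TGANTCA. The GC box was there in 30.9% of wide and 13.4% of other windows.

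Each region was built from peaks that the libraries covered to very different extents. LysMCre+ Rxrab fl/fl replicates 1 and 2 covered a median of 1246.5 and 1265.5 bp, whereas Rxrab fl/fl replicates 1 and 3 covered 956.5 and 463.5 bp. Over all 500, the 4 libraries in the same order covered 87.8, 89.9, 67.0 and 35.5% of the 704 kb of merged width. The largest covered width came from LysMCre+ Rxrab fl/fl replicate 2 in 269 regions, replicate 1 in 214, Rxrab fl/fl replicate 1 in 17 and replicate 3 in 1, with ties counted for both libraries. Both LysMCre+ Rxrab fl/fl libraries were wider than both of Rxrab fl/fl in 398 of the 500 (79.6%), where 73.1% of all regions called in 2 or more libraries showed this order. The opposite order was seen in 1 wide region and 0.332% of all regions. Among the 415 wide regions called in all 4 libraries, 318 were wider in LysMCre+ Rxrab fl/fl and 1 in Rxrab fl/fl, with 59.2% and 0.77% of the 15199 regions called in all 4 doing so. Width chose these regions, and most regions called in 2 or more libraries showed the same order, so nothing is read from these counts. Both LysMCre+ Rxrab fl/fl libraries had more peaks than both of Rxrab fl/fl. Within LysMCre+ Rxrab fl/fl, however, replicate 1 had more peaks than replicate 2 and covered less of the 500. For a single region, an exact permutation test of 2 against 2 libraries, two-sided, cannot go below p = 0.3333.

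**Figure D2:**
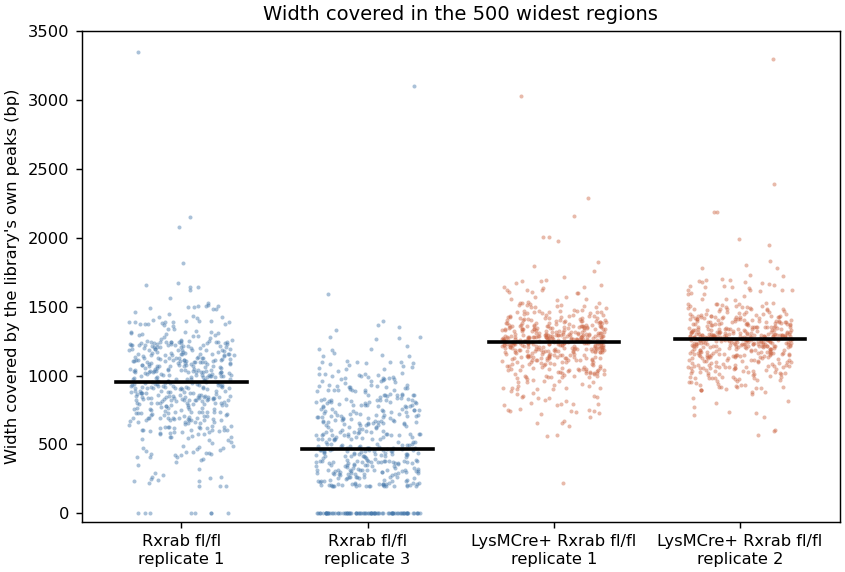
Width in bp that each library's own peaks covered (vertical axis) in each of the 500 widest regions (points), by library, with black lines at the medians of 956.5, 463.5, 1246.5 and 1265.5 bp. The points at 0 are the 8 and 85 regions without a peak in Rxrab fl/fl replicates 1 and 3.

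All 500 regions had a peak in both LysMCre+ Rxrab fl/fl libraries. Rxrab fl/fl replicate 1 called 492 (98.4%) and replicate 3 called 415 (83%), and 77 regions were missed in replicate 3 alone. Of the 51242 other regions, LysMCre+ Rxrab fl/fl replicates 1 and 2 called 98.99% and 96.4%. Rxrab fl/fl replicates 1 and 3 called 68.5% and 29.2% of them. Calling of the wide regions was therefore near that of other regions in LysMCre+ Rxrab fl/fl and more frequent in Rxrab fl/fl. The 8 regions called in LysMCre+ Rxrab fl/fl only lay near or at Ncoa5, Laptm5, Pde2a, Acot13, Tiam1, Qk, Rnf169 and Tnni1, and 7 of the 8 held no TSS, and their names are given after their values were seen. Regions without a TSS were called less often in Rxrab fl/fl replicate 3, at 60.8% against 88.3% of those with one. In regions called in all 4 libraries, a core covered by every library spanned a median of 540 bp, or 39.1% of the merged width, and ranged from 95 to 2903 bp. A single peak of 1 library spanned 90% or more of the merged width in 387 regions and the whole of it in 103, so that width was mostly set by 1 long peak rather than by staggered peaks. In 4 regions no peak reached 50% of the width.

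The regions held 2624 peaks in all, with means per region of 1.46 and 1.12 for Rxrab fl/fl (replicates 1 and 3) against 1.36 and 1.32 for LysMCre+ Rxrab fl/fl (replicates 1 and 2). Other regions called in all 4 libraries had 1.02 to 1.04 peaks per library. One peak was found in 274, 279, 333 and 353 of the 500 in the same order, 2 peaks in 201, 127, 156 and 136, and 3 peaks in 16, 9, 11 and 11. Only the promoter of Hsp90ab1 had 4 peaks in 1 library, Rxrab fl/fl replicate 1, and its 10 peaks over the 4 libraries were the highest total. In 96 regions every library had exactly 1 peak, in 385 at least 1 library had 2 or more, and in 6 every library did. Peaks of a library inside one region were parted by median gaps of 169.5 and 185 bp in Rxrab fl/fl against 131 and 121 bp in LysMCre+ Rxrab fl/fl, with summits 611 to 722.5 bp apart at the median. In regions with a single TSS position, the gaps seldom held it, at 3 of 122 and 2 of 68 gaps in Rxrab fl/fl against 4 of 81 and 7 of 84 in LysMCre+ Rxrab fl/fl.

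**Figure D3:**
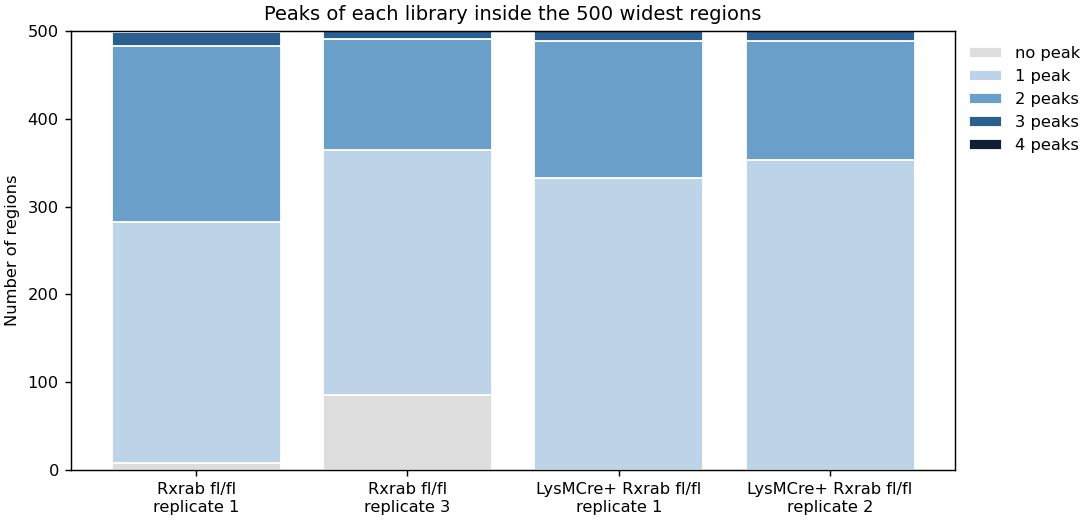
Number of the 500 widest regions (vertical axis) with no peak, 1, 2, 3 or 4 peaks in each library. Rxrab fl/fl replicate 1 has the most regions with 2 peaks (201), and the regions without a peak are the 8 and 85 of the Rxrab fl/fl libraries.

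The widest region of all lay at chr17:39843115-39846473 and was covered over 3348, 3101, 3027 and 3300 bp in the 4 libraries, Rxrab fl/fl first, an order kept for the regions that follow. The nearest curated TSS was that of Esp38, at -105727 bp from the midpoint, but 3227 of its 3359 bp overlapped Gm26917, a lincRNA of GENCODE vM21. Another 121 bp overlapped a gene that GENCODE types as rRNA. Ribosomal DNA has many nearly identical copies, so reads here may come from elsewhere and the values are uncertain. Its fold enrichment was low and alike in the libraries, at 3.29, 3.14, 3.71 and 3.63.

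The next was the 2447 bp stretch past the end of Malat1, an abundant nuclear long non-coding RNA, at chr19:5793140-5795586. It covered 1234 bp in Rxrab fl/fl replicate 1, no base in replicate 3, and 2287 and 2390 bp in LysMCre+ Rxrab fl/fl. The nearest TSS was that of Mascrna, the small RNA cut from the Malat1 transcript. At Hsp90ab1, which encodes a cytosolic chaperone, the promoter region (chr17:45572421-45574692, 2272 bp) covered 1482 and 200 bp in Rxrab fl/fl against 1978 and 1671 bp in LysMCre+ Rxrab fl/fl. Tiparp, a mono-ADP-ribosyltransferase induced by the aryl hydrocarbon receptor, shared its 2201 bp region (chr3:65527689-65529889) with the start of the non-coding 4931440P22Rik. There the libraries covered 2154 and 1101 bp against 2159 and 1993 bp, and the genotypes overlapped.

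Inside the long form of Neat1, whose RNA scaffolds paraspeckles, and past the end of its short form, 2185 bp (chr19:5838777-5840961) were covered over 592 and 0 bp against 1501 and 2185 bp, with fold enrichments of 2.09, 2.09 and 2.34 in the libraries that called it. In LysMCre+ Rxrab fl/fl replicate 2, 1 peak was the whole region. The promoter of 4930526I15Rik (chr9:124422714-124424826, 2113 bp) went the other way, with 2080 and 1589 bp in Rxrab fl/fl against 1599 and 1694 bp in LysMCre+ Rxrab fl/fl, and the genotypes overlapped. Setd7, a lysine methyltransferase gene, had 2096 bp (chr3:51559634-51561729) covered over 1658 and 0 bp against 2005 and 1700 bp.

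The glucocorticoid receptor gene Nr3c1 had 4 TSS positions within 2018 bp, covered over 1036 and 203 bp in Rxrab fl/fl against 1826 and 1491 bp in LysMCre+ Rxrab fl/fl. Between genes, 2004 bp at chr15:85670093-85672096, with the nearest curated TSS, of Lncppara, at -32679 bp, were covered over 731 and 275 bp against 2004 and 1409 bp and had a CpG ratio of 0.94. Klf2, a zinc finger factor, was represented not by its promoter but by 1946 bp past its end (chr8:72324136-72326081), covered over 676 and 0 bp against 1529 and 1946 bp. Fos, a subunit of AP-1, was likewise represented by 1893 bp past its end (chr12:85477791-85479683), where Rxrab fl/fl replicate 1 covered the most with 1817 bp, followed by LysMCre+ Rxrab fl/fl replicate 2 with 1419 bp, replicate 1 with 1347 bp and Rxrab fl/fl replicate 3 with 860 bp. Rxrab fl/fl replicate 3 covered the fewest bases in each of these 11 regions except the widest, where LysMCre+ Rxrab fl/fl replicate 1 did.

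**Figure D4:**
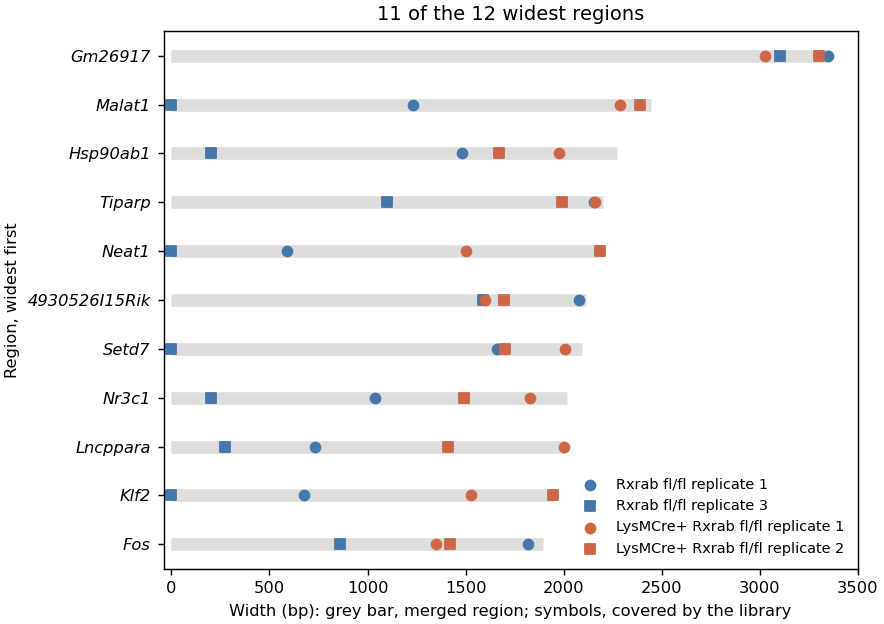
Merged width in bp (grey bars) of 11 of the 12 widest regions, named by the gene at or beside them, with the width each library covered (symbols, blue for Rxrab fl/fl and orange for LysMCre+ Rxrab fl/fl). Coverage is nearly complete in all libraries at Gm26917 only, and Malat1, Neat1, Setd7 and Klf2 have no peak in Rxrab fl/fl replicate 3.

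Past the ends of genes lay a larger share of the wide regions without a TSS than of other regions without one. The midpoint lay up to 5 kb past a 3′ end, inside or outside another gene, in 22 of the 97 (22.7%), against 10.3% of the other regions without a TSS and 13.6% for the next 500 in width. Among the 100 widest, 9 of the 24 regions without a TSS did so (37.5%). Fos, Btg2 and Zfp36 of the immediate early and stress list, genes that cells transcribe soon after a stimulus, had such a region. Malat1, Neat1, Klf2, Dbn1, Lilrb4a, Lyl1, Laptm5, Stx4a and Ckb were among the others, names given after their values were seen. The midpoint was 293 bp past the end at Ckb, a creatine kinase gene, 523 bp at Btg2 and 749 bp at Zfp36, both regulators of mRNA turnover, and 3454 bp at Klf2. Laptm5, which encodes a lysosomal membrane protein and was in the list of LPM hallmark genes, had 1464 bp past its end covered over 217 and 1464 bp in LysMCre+ Rxrab fl/fl and not called in Rxrab fl/fl.

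These regions were wide and had low fold enrichment. Averaged over the libraries that called a region, fold enrichment had a median of 5.89 past 3′ ends (range 2.17 to 13.7, n = 22), 10.8 in wide regions with a TSS (2.86 to 19.2, n = 403) and 8.33 in the other 75. Of the 22, 7 were below 5, compared with 4 of the 403. Other regions past 3′ ends had a median of 7.28. The 22 were called in all 4 libraries in 12 cases (54.5%), against 88.3% of wide regions with a TSS, and had a median CpG ratio of 0.25 and 53.2% GC. In the other 75 wide regions without a TSS these values were 62.7%, 0.34 and 54.4%. Fold enrichment is the ratio to a background taken around the peak, so signal that spreads beyond a peak lowers it. The number of tags stacked at the summit was not low throughout. At Klf2 it was 71 in Rxrab fl/fl replicate 1 against 229 and 382 in LysMCre+ Rxrab fl/fl, and at Fos 141 and 40 against 71 and 79.

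**Figure D5:**
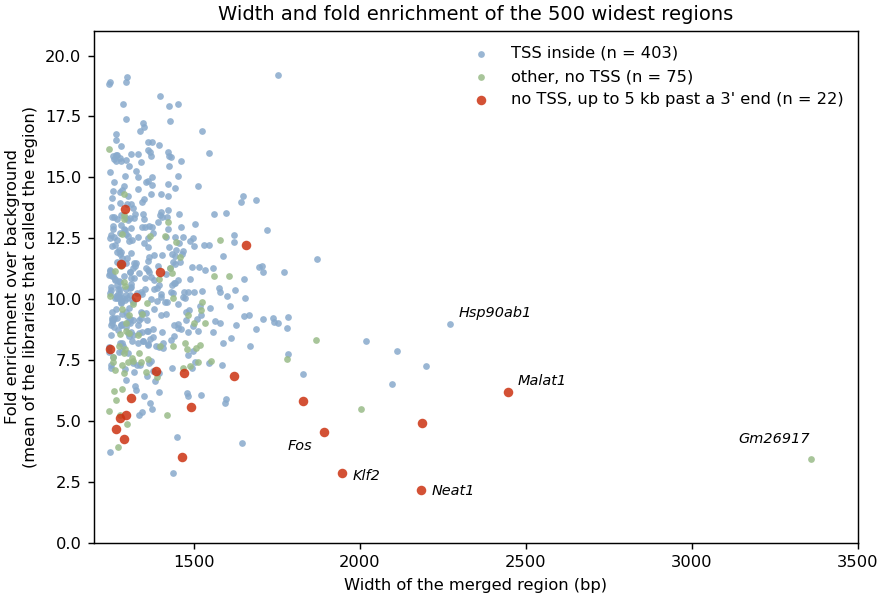
Fold enrichment at the summit (vertical axis, mean of the libraries that called the region) against merged width in bp (horizontal axis) for each of the 500 widest regions. Regions past 3′ ends (red, n = 22) include Malat1, Neat1, Klf2 and Fos, the last 3 of which lie below a fold enrichment of 5.

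Across all ranks, fold enrichment was not highest in the widest regions. In regions called in all 4 libraries its median in Rxrab fl/fl replicates 1 and 3 was 13.2 and 8.20 for the 415 widest, and 15.8 and 8.89 for the 2815 such regions among the 4000 ranked after the first 1000. In LysMCre+ Rxrab fl/fl it was 12.1 and 9.76 against 15.2 and 12.3. The pileup, the whole number of tags stacked at the summit, was instead slightly higher in the widest regions, with medians of 120, 28, 119 and 77 against 114, 26, 113 and 73 in those 2815.

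Genes of defined groups were counted among those with a TSS in any region called in 2 or more libraries, for which the background is 4.14%. The shares of the groups ran from 0% to 22.7%. The groups were drawn up with results of these data known, and their counts are descriptions. Of macrophage transcription factors, 6 of 34 had a TSS in a wide region, namely Maf, Nfe2l2, Bhlhe40, Cebpa, Elf1 and Etv6. Maf (chr8:115706751-115708362, 1612 bp) was covered over 1114 and 215 bp in Rxrab fl/fl against 1573 and 1590 bp in LysMCre+ Rxrab fl/fl. Nfe2l2 (chr2:75703405-75704982, 1578 bp) had exactly 1 peak in each library, over 1494 and 923 bp against 1530 and 1476 bp. Bhlhe40 (chr6:108659277-108660788, 1512 bp) had 1503 and 1194 bp against 1512 and 1495 bp and overlapped between the genotypes.

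Nuclear receptors and co-regulators had 5 of 26, Nr3c1, Nr1d2, Rara and Pparg among them, whereas the floxed genes Rxra and Rxrb had none. For Nr1d2, the REV-ERBβ gene (chr14:18238180-18239613, 1434 bp), coverage overlapped between genotypes, at 1299 and 1077 bp in Rxrab fl/fl against 1361 and 1179 bp in LysMCre+ Rxrab fl/fl. Pparg, a receptor that pairs with RXR, had 665 and 0 bp against 1111 and 1184 bp, and Rara, the retinoic acid receptor α gene, 810 and 419 bp against 1292 and 1135 bp.

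Cytoskeleton and housekeeping genes had 5 of 22, Hsp90ab1, Ubb, Ppia, Vim and Actb. Ubb, a polyubiquitin gene (chr11:62550371-62551860, 1490 bp), was split into 2, 2, 3 and 2 peaks that covered 1240 and 554 bp in Rxrab fl/fl against 1114 and 1211 bp in LysMCre+ Rxrab fl/fl. Ppia, which encodes cyclophilin A (chr11:6415367-6416836, 1470 bp), had 1131 and 786 bp against 1461 and 1261 bp. The genotypes overlapped at Ubb, where Rxrab fl/fl replicate 1 covered the most, and not at Ppia.

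Chromatin regulators had 3 of 22. Ezh2, the H3K27 methyltransferase gene, shared its region (chr6:47594136-47595508, 1373 bp) with a divergent non-coding start and reached fold enrichments of 20.6, 11.9, 17.7 and 13.3. Ctcf (chr8:105635760-105637071, 1312 bp) was covered over 1063 and 880 bp against 1163 and 1295 bp, and Dnmt3a, a DNA methyltransferase gene (chr12:3806239-3807490, 1252 bp), over 605 and 0 bp against 1232 and 571 bp. The genotypes overlapped at Dnmt3a only.

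Immediate early and stress genes had 2 of 24, Egr1 and Zfp36l2, and another 3, Fos, Btg2 and Zfp36, entered through regions past their ends. Egr1, a zinc finger factor, had 1 peak per library over 1189 and 828 bp in Rxrab fl/fl against 1346 and 1312 bp in LysMCre+ Rxrab fl/fl, at fold enrichments of only 4.84 to 5.68. Zfp36l2, an mRNA decay factor gene (chr17:84187710-84188991, 1282 bp), had 1072 and 904 bp against 1170 and 1227 bp at 7.55 to 13.8. Of LPM hallmark genes, 2 of 20 were included. Garnl3 (chr2:33130413-33131848, 1436 bp) had 1039 and 891 bp against 1124 and 1304 bp in 1 peak each, and F10, the coagulation factor X gene (chr8:13036154-13037451, 1298 bp), had 1159 and 1013 bp against 1135 and 1286 bp, where the genotypes overlapped. No gene of small peritoneal and monocyte-derived macrophages (0 of 18), myeloid surface receptors and adhesion (0 of 24) or the listed long non-coding RNAs (0 of 14) had a TSS in a wide region, although Neat1 entered through its gene body. Groups this small would hold few such genes at the background share, so nothing is read from their absence.

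Genotype was then compared in fold enrichment at the summit, which the choice by width did not use, although both come from the same peaks. In bulk libraries, fewer cells with an open region and less signal per cell cannot be told apart. limma was fitted to the log2 of the highest fold enrichment of each of the 15199 regions called in all 4 libraries, centred on each library's median. No wide region passed an adjusted p under 0.05 with a log2 fold change past 1, among 415 tested, while 0.0395% of all regions passed towards LysMCre+ Rxrab fl/fl and 0.0461% towards Rxrab fl/fl. In simulated data the same fit called 57 of 100 regions changed by a log2 of 2.0 and only 4 of 100 changed by 1.2. The lack of calls therefore does not show a lack of difference. With 1 library left out and the 500 widest chosen again from the other 3, calls were counted in wide and in all regions. Without Rxrab fl/fl replicate 1 they were 32 of 419 wide regions tested (7.64%) against 5.18% of all regions, and without replicate 3 they were 14 of 492 (2.85%) against 3.55%. Without LysMCre+ Rxrab fl/fl replicate 1 they were 0 of 426 against 0.0786%, and without replicate 2 they were 1 of 443 (0.226%) against 0.124%. At an unadjusted p under 0.05 there were 114 wide regions (27.5%) against 22.0% of all regions, but without centring 1 (0.241%) against 5.27%, so the order of these shares depended on the scaling. The lowest adjusted p from limma among wide regions was 0.0545, and log2 differences ranged from -1.30 to 0.85. The median difference, LysMCre+ Rxrab fl/fl minus Rxrab fl/fl, was -0.31 in wide regions and -0.09 in all regions, and without centring 0.06 and 0.28, so the sign depended on the scaling. Relative to all regions the wide ones stood at -0.22, a value that centring cannot change, and at -0.23 under quantile normalization. The next 500 in width stood at -0.18 and the following 4000 at -0.11. On the pileup, the number of tags at the summit, the order was the opposite, with -0.03, -0.06 and -0.08 relative to all regions.

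On the pileup at the summit, centred in the same way, 34 of 396 wide regions passed the same threshold in limma. Of these, 12 (3.03%) were higher in LysMCre+ Rxrab fl/fl, against 2.83% of all 14384 regions tested, and 22 (5.56%) were higher in Rxrab fl/fl, against 4.75%. Shares this near the background say nothing particular about wide regions. The largest difference was in an intron of Tns1, which encodes tensin 1, a link between integrins and actin (chr1:73998110-73999466). Pileups there were 34 and 9 in Rxrab fl/fl against 228 and 135 in LysMCre+ Rxrab fl/fl, a log2 difference of 2.48 ± 0.24 (SE, adjusted p = 0.0106 from limma). Fold enrichments were 7.51 and 4.85 against 8.45 and 7.17, and the log2 difference was -0.00 ± 0.21 (SE, adjusted p = 0.998 from limma). Covered width was 319 and 265 bp against 1328 and 1334 bp, the largest ratio of the genotypes' means among regions called in all 4 libraries, at 4.56.

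Zmiz1, a transcriptional coactivator gene, had a region at -57060 bp from its TSS (chr14:25401444-25402807) with pileups of 45 and 9 against 130 and 98, a log2 difference of 1.64 ± 0.23 (SE, adjusted p = 0.0114 from limma), and one of 0.12 in fold enrichment. Towards Rxrab fl/fl, an intronic region of Sfi1, a centrosome gene (chr11:3184354-3185624), had pileups of 118 and 79 against 46 and 48 and the lowest ratio of covered width, 0.78. Its pileup difference was -1.89 ± 0.45 (SE, adjusted p = 0.0275 from limma), and that in fold enrichment, -0.37 (adjusted p = 0.464 from limma), did not pass. A region between genes, at 64744 bp from the TSS of Zfp958 (chr8:4677305-4678865), had 350 and 78 against 117 and 60. The promoter of Zfp78 (chr7:6362315-6363618) had 338 and 92 against 146 and 77, and both are zinc finger genes. Neither region passed in fold enrichment, with log2 differences of -0.73 and -0.58 (adjusted p = 0.127 and 0.198 from limma). Raw pileups grow with depth, which was greatest in Rxrab fl/fl replicate 1, and at Zfp958, Zfp78 and Slc39a10 the uncentred values of the genotypes overlapped. At the promoter of Slc39a10, a zinc transporter gene (chr1:46852660-46854312), pileups were 250 and 57 against 82 and 66, and after centring the log2 differences were -1.55 ± 0.24 on the pileup (SE, adjusted p = 0.0114 from limma) and -1.09 ± 0.25 in fold enrichment (SE, adjusted p = 0.0650 from limma, which did not pass).

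Beside Tns1, the largest ratios of covered width were at the promoters of Nasp, a histone chaperone gene (chr4:116626714-116628146), with 482 and 208 bp against 1362 and 1298 bp, and Snx29, a sorting nexin gene (chr16:11322680-11324001), with 439 and 223 bp against 1188 and 1233 bp. Neither differed in fold enrichment past the threshold, with log2 differences of -0.05 and 0.06 (adjusted p = 0.914 and 0.894 from limma). The smallest ratios after Sfi1 were those of 4930526I15Rik, at 0.90, and of Myo9a, an unconventional myosin gene (chr9:59750508-59751755), at 0.96, where 1045 and 892 bp were covered in Rxrab fl/fl against 910 and 959 bp in LysMCre+ Rxrab fl/fl.

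The width limit fell within a tie. There were 6 regions of 1244 bp and 1 of them, at Akap9 (chr5:3927822-3929065), was inside by chromosome order, preceded by 1245 bp at Mir6995 (chr19:47313746-47314990). Just outside were the regions at Sema3f (chr9:107724001-107725244) and Stt3b (chr9:115309870-115311113), of the same 1244 bp.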

How the data were processed

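ATAC-seq libraries of LPMs were compared between Rxrab fl/fl mice and those with LysMCre+, with 2 libraries per genotype. Per the study's methods and the submitters' processing notes, the authors trimmed reads with Cutadapt, aligned them to mm10 with Bowtie2, removed duplicates and called peaks in each library on its own with MACS2 (version 2.1.1) at a q value of 0.05, after which blacklisted regions were removed. The deposited peak lists give start, end and summit offset, the fold enrichment at the summit as a ratio to the local background, and −log10 of the p and q values, all computed by the authors' run of MACS2. A score column that MACS2 derives from the q value was also deposited and not used here. The lists hold no read counts, so depth was estimated from the lowest background and intervals cover counting error only.

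The members and gene lists were chosen with earlier results of these data known. Merged regions were ranked by width, ties by chromosome and start. TSSs, 3′ ends and sequences came from RefSeq GRCm38.p6. Summit pileups were solved from the fold enrichment and p-value, which succeeded for between 97.9 and 99.8% of a library's peaks. Genotypes were compared with limma (version 3.58.1, R 4.3.3) on log2 values centred on each library's median, with Benjamini-Hochberg adjustment over all regions tested, and calls needed a log2 fold change past 1 with an adjusted p under 0.05, and the fit was tested on simulated data. Other steps used Python 3.11.15 with numpy 2.4.6, pandas 2.3.3, scipy 1.17.1 and matplotlib 3.10.9. The regions named were the 12 widest, up to 3 per gene list with the widest first, at most 6 called regions by size of the difference in each limma fit, the 3 highest and 3 lowest ratios of covered width among regions called in all 4 libraries, and 2 on each side of the width limit. Regions at 2 genes that this rule names are not reported here. Other names were chosen after their values were seen. The alternatives were peak thresholds, equal peak numbers, other rankings and merging, other measures and scalings, and each library left out.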

Additional observations from a re-analysis of the deposited data

How the results depend on the processing

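The choice of regions depended on how width was measured and on the peaks each library supplied. Of the 500, 291 were also chosen when regions were ranked by mean width covered and 206 when peaks were merged across gaps of up to 200 bp. With the same number of peaks per library 338 were chosen again. With 1 library left out 307 to 496 were, the fewest without LysMCre+ Rxrab fl/fl replicate 2. The share with a TSS was 85.2% when all 4 libraries were required, 85% by mean width covered, 60.4% by the midpoint and 77 to 86% with 1 library left out. With the same number of peaks per library, the median width covered was 894.5 and 573 bp in Rxrab fl/fl replicates 1 and 3 against 1194 and 1195.5 bp in LysMCre+ Rxrab fl/fl replicates 1 and 2. The mean number of peaks was then 1.1 and 1.304 against 1.036 and 0.972, higher in both Rxrab fl/fl libraries, unlike the order with all peaks. The count of wide regions past the limma threshold in fold enrichment was 2 with equal peak numbers (0.468% against 0.399% of all regions), 34 on the pileup (8.59% against 7.58%), 7 with a mean-variance trend (1.69% against 0.901%) and 0 to 32 with 1 library left out (0 to 7.64% against 0.0786 to 5.18%), where a genotype left with 1 library was assumed to vary like the other. The cause of these changes was not tested. No paired analysis was possible because the genotypes share only replicate number 1. Depth was estimated, not counted, and 2 libraries per genotype limit the precision.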
